A study of Mus musculus with 17 samples.

Results

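A T cell that meets its antigen on an MHC molecule needs a second, costimulatory signal, and the same contact can deliver an inhibitory one. Transcripts of 10 genes that encode such surface ligands were followed here in tubular cells and kidneys: Cd80, Cd86, Icosl, Cd40, Cd274, Pdcd1lg2, Cd276, Vtcn1, Icam1 and Cd47. They were picked by symbol from knowledge of the pathway and matched to Ensembl identifiers with the version dropped, and all 10 were found among the 53313 gene identifiers common to every library. The question was whether senescent tubular cells carry transcripts for a second signal to T cells.

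CD80 and CD86 bind CD28, the main costimulatory receptor of T cells, and also CTLA4, which restrains them. ICOS ligand (Icosl) binds ICOS on activated T cells, and CD40 receives CD40 ligand from helper T cells and raises the costimulatory capacity of the cell that carries it. PD-L1 (Cd274) and PD-L2 (Pdcd1lg2) bind the inhibitory receptor PD-1, B7-H3 (Cd276) and B7-H4 (Vtcn1) are further members of the B7 family described mostly as inhibitory, ICAM1 holds T cells through the integrin LFA-1, and CD47 signals through SIRP-alpha to restrain phagocytosis. Tubular epithelium is known to take up MHC class II, CD40, ICAM1 and PD-L1 under inflammatory stimuli.

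Bulk RNA sequencing was available for 17 wild-type samples in 5 groups, labelled C57BL/6Rj and given as C57BL/6JRj in the study's methods. Primary tubular epithelial cells (PTEC) were grown from collagenase-digested, sieved kidney tubules in REGM2 medium, with 4 non-senescent samples at day 6, not irradiated, and 4 senescent samples at day 16, irradiated at confluence with 10 Gray of γ-rays, so that irradiation and time in culture cannot be told apart. Kidneys came from male mice of 3, 12 and 24 months, 3 in each group, as tissue of the right kidney that holds all its cell types. The labels number the replicates but do not say whether the PTEC samples came from separate mice, so p-values there measure the spread between these samples, which may be technical. PTEC libraries held 26963442 to 35409144 counts, and kidney libraries 37311247 to 66894790, with totals that rose with age without overlap. The kidneys of 3 months were deposited with 54146 gene identifiers and those of 12 and 24 months with 55401, so age and the deposited gene set cannot be told apart in comparisons with 3 months.

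The senescence labels of PTEC were checked first. Cdkn1a, which encodes p21, averaged 772 CPM, counts scaled to a common library total, in senescent and 313 CPM in non-senescent PTEC (log2 fold change 1.30, edgeR adjusted p = 0.000602), and Cdkn2a, which encodes p16, averaged 101 and 32.4 CPM (log2 fold change 1.64, edgeR adjusted p = 0.000236). The summed level of 10 proximal tubule markers was 215 to 258 CPM in non-senescent replicates 1 to 3 and 848 CPM in replicate 4, 169 to 352 CPM in senescent PTEC and 12065 to 22689 CPM in kidneys. Of these markers 6 were tested in PTEC, of which 3 were down-regulated and none up-regulated in the senescent group (median log2 fold change −1.80), beside 19.7% and 20.1% of all tested genes, while 6 markers of epithelium in general summed to 3054 to 4259 CPM in non-senescent and 1360 to 3088 CPM in senescent PTEC. The cultures thus held epithelial transcripts, and their proximal tubule markers were low beside those of kidneys, which were normalised separately. Markers of fibroblasts and pericytes summed to 78.5 to 166 CPM in non-senescent and 567 to 1215 CPM in senescent PTEC, and 5 of the 7 tested were up-regulated, beside 20.1% of all tested genes. Acta2 alone made 33.7 to 94.5 CPM of these sums in non-senescent and 448 to 991 CPM in senescent PTEC. Summed leukocyte markers were 48.4 to 66.8 CPM in non-senescent and 34.1 to 50.2 CPM in senescent PTEC. Of the 7 tested, 4 were down-regulated (Ptprc, Coro1a, Arhgdib and Lcp1), Cytip was up-regulated, and Laptm5 and Cd53 were not called. Ptprc, which encodes the pan-leukocyte protein CD45, averaged 3.59 CPM in non-senescent and 1.87 CPM in senescent PTEC (edgeR adjusted p = 0.0141). In bulk samples, fewer cells of a type and less RNA per cell cannot be told apart.

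Promoters are shown for the members that changed in PTEC and for Icam1, which changed in kidneys, because 2 of the former rose together. RefSeq promoters of GRCm38.p6, 250 bases before to 50 after the start site, were at hand for 8 of the 10 members. Capitals mark a match to the NF-kB letters (GGGA, any 4 bases, CC) or to those of the GAS element, which STAT proteins bind (TTC, any 3 bases, GAA), on either strand, and the core of the interferon-stimulated response element (GAAA, any 2 bases, GAAA) was searched too. The windows were chr16:38458683-38458982 for Cd80, chr19:29367188-29367487 for Cd274, chr10:78069118-78069417 for Icosl and chr9:21015690-21015989 for Icam1, each on the plus strand.
Cd80: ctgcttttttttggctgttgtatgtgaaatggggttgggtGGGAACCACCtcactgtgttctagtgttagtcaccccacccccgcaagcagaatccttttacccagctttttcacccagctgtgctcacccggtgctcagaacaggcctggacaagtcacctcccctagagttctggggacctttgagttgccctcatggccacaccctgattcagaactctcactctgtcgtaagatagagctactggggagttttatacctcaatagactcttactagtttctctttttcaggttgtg
Cd274: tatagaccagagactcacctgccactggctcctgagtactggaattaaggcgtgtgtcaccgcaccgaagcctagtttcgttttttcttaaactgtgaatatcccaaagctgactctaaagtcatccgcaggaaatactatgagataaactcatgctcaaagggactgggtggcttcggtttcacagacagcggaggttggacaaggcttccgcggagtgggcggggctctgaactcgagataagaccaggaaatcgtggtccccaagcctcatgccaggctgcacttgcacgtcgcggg
Icosl: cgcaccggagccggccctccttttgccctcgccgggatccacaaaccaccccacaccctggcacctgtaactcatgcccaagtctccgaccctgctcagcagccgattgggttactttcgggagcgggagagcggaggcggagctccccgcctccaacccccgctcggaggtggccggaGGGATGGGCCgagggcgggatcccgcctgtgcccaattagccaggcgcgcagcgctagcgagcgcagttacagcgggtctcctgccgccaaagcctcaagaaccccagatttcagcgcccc
Icam1: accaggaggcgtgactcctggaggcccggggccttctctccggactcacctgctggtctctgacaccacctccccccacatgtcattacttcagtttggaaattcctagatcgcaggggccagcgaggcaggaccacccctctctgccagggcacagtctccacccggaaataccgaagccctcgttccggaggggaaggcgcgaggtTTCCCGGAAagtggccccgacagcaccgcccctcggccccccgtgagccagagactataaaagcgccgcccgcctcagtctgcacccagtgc
Cd80 and Icosl each held 1 NF-kB match and Icam1 held 1 GAS match. Cd274 held none of the 3 motifs in its window. Among 32851 promoters of this length, 20.7% held the NF-kB letters, 8.3% the GAS letters and 3.44% the interferon core, and a match is a description of letters and not a binding site.

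The members differed widely in level. Per kilobase of exon, mean levels in non-senescent PTEC were 25.4 CPM for Cd47, 10.8 for Icam1, 10.1 for Cd276, 2.59 for Vtcn1, 1.81 for Cd40, 0.804 for Icosl, 0.406 for Cd274, 0.0826 for Cd80, 0.0517 for Cd86 and 0.00500 for Pdcd1lg2. In senescent PTEC they were 19.7 CPM per kilobase for Cd47, 13.6 for Icam1, 10.2 for Cd276, 3.44 for Cd40, 1.48 for Cd274, 1.43 for Vtcn1, 0.481 for Cd80, 0.366 for Icosl, 0.0161 for Cd86 and 0 for Pdcd1lg2. Adhesion, CD47 and B7-H3 transcripts led in both groups, and the CD28 ligands were near the end. The intervals of mean ± SD overlapped in non-senescent PTEC for the neighbours Icam1 and Cd276, Vtcn1 and Cd40, Icosl and Cd274, and Cd80 and Cd86. In senescent PTEC they overlapped for Cd47 and Icam1, Icam1 and Cd276, Cd40 and Cd274, Cd274 and Vtcn1, and Cd80 and Icosl.

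**Figure D1:**
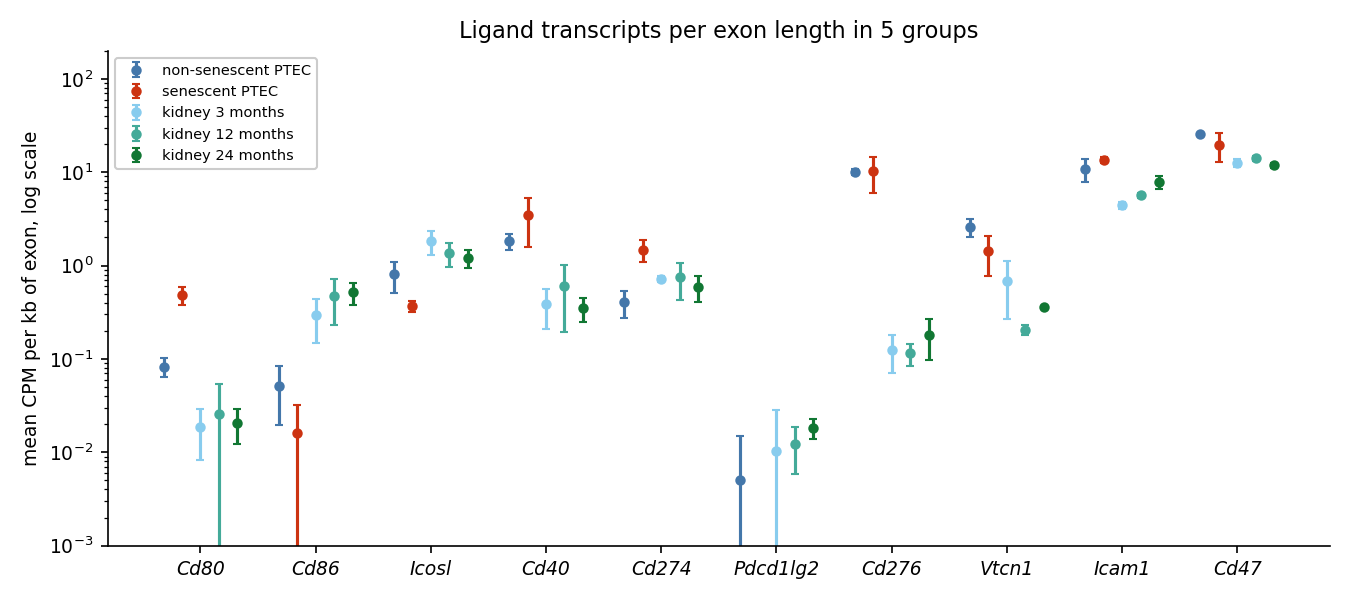
Mean CPM per kilobase of exon (log axis) of the 10 ligand genes in non-senescent and senescent PTEC (n = 4 each) and in kidneys of 3, 12 and 24 months (n = 3 each), with bars of 1 SD that are cut at the lower edge of the axis. Levels ran from 25.4 for Cd47 to 0.00500 for Pdcd1lg2 in non-senescent PTEC, Pdcd1lg2 at 0 in senescent PTEC is not drawn, and PTEC and kidneys were normalised separately.

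In PTEC, 8 of the 10 members passed the filter on low counts. Cd80 and Cd274 were up-regulated in senescent PTEC and Icosl was down-regulated, while Cd40, Cd276, Vtcn1, Icam1 and Cd47 did not pass the test. A call required an adjusted p under 0.05 in edgeR's quasi-likelihood test and an absolute log2 fold change above 0.5. Of all 15434 genes tested, 20.1% were up-regulated and 19.7% down-regulated, so 2 and 1 of the 8 members lie near the background. The members' median log2 fold change was 0.17, against −0.00 over all tested genes.

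Cd80 was scarce in non-senescent PTEC, at 0.369, 0.361, 0.235 and 0.258 CPM in replicates 1 to 4, from 12, 11, 6 and 7 counts. In senescent PTEC it was measured at 1.61, 2.24, 1.38 and 1.90 CPM, from 50, 67, 51 and 55 counts. Every senescent sample lay above every non-senescent one, as was so for 22.1% of all tested genes. The increase was 5.71-fold (log2 fold change 2.51, SE 0.289, 95% interval 1.87 to 3.16, edgeR adjusted p = 0.000152). Cd80 passed the filter on low counts through the senescent samples, where it is high, and the fold rests on few non-senescent counts. Cd80 (ENSMUSG00000075122) lies at chr16:38455561-38496335 on the plus strand of GRCm38, and its RefSeq promoter above is that of a start site inside this span.

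Cd86, the other CD28 ligand, had 3, 11, 4 and 4 counts in non-senescent and 1, 4, 0 and 2 counts in senescent PTEC. Apart from the 11 counts of non-senescent replicate 2, these values are at or near the floor of 3 counts. This floor stands for 0.0922 to 0.118 CPM in the non-senescent and 0.0810 to 0.104 CPM in the senescent libraries. A difference in Cd86 was not detectable at this depth under the filter on low counts, and with no filter the log2 fold change was −1.70 (edgeR adjusted p = 0.111). Cd86 (ENSMUSG00000022901) lies at chr16:36603869-36666081 on the minus strand.

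Icosl (ENSMUSG00000000732, chr10:78069302-78083913, plus strand) moved the other way. Its levels were 3.01, 2.56, 3.61 and 5.68 CPM in non-senescent and 1.64, 1.88, 1.86 and 1.38 CPM in senescent PTEC. All senescent samples lay below all non-senescent samples, as 19.9% of all tested genes did, by 2.19-fold in the fit (log2 fold change −1.13, SE 0.288, 95% interval −1.78 to −0.49, edgeR adjusted p = 0.0109). The call was lost when only senescent replicates 1 and 2 were kept (−1.07, edgeR adjusted p = 0.0730) or only 3 and 4 (−1.18, edgeR adjusted p = 0.0740), fits chosen after the data were seen. Its receptor Icos, a gene of activated T cells, had 142, 165, 37 and 25 counts in non-senescent and 1, 2, 2 and 0 counts in senescent PTEC. The summed Icos counts of 369 and 5 give a ratio of 81.0 at equal depth (exact 95% counting interval 34.4 to 251.0, which covers counting error only). The 8 T cell markers summed to 2.31 to 3.96 CPM in non-senescent and 2.25 to 2.66 CPM in senescent PTEC, most of it Lck, at 1.94 to 3.76 CPM and 2.14 to 2.42 CPM. Cd3e, Cd3d, Cd3g, Cd8a and Cd8b1 were at 0 in every non-senescent sample, and had at most 1 count in any senescent sample. Cd4 had 10, 9, 3 and 3 counts in non-senescent and 1, 8, 1 and 5 in senescent PTEC, and Cd5 had 2, 7, 2 and 3 and then 0, 0, 1 and 1 counts, both too low to be tested. The part of T cell RNA in the Icos values was not tested.

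Cd40 (ENSMUSG00000017652, chr2:165055627-165072948, plus strand) split the senescent samples. It was measured at 6.24, 6.63, 7.37 and 4.47 CPM in non-senescent and at 7.40, 5.12, 17.7 and 16.6 CPM in senescent PTEC. Senescent replicates 3 and 4 were high, while replicates 1 and 2 were within or just above the non-senescent range. The log2 fold change of 0.92 (SE 0.384, 95% interval 0.07 to 1.78) did not pass the test (edgeR adjusted p = 0.0763). Without senescent replicate 2 Cd40 was called, at 1.17 (edgeR adjusted p = 0.0197).

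**Figure D2:**
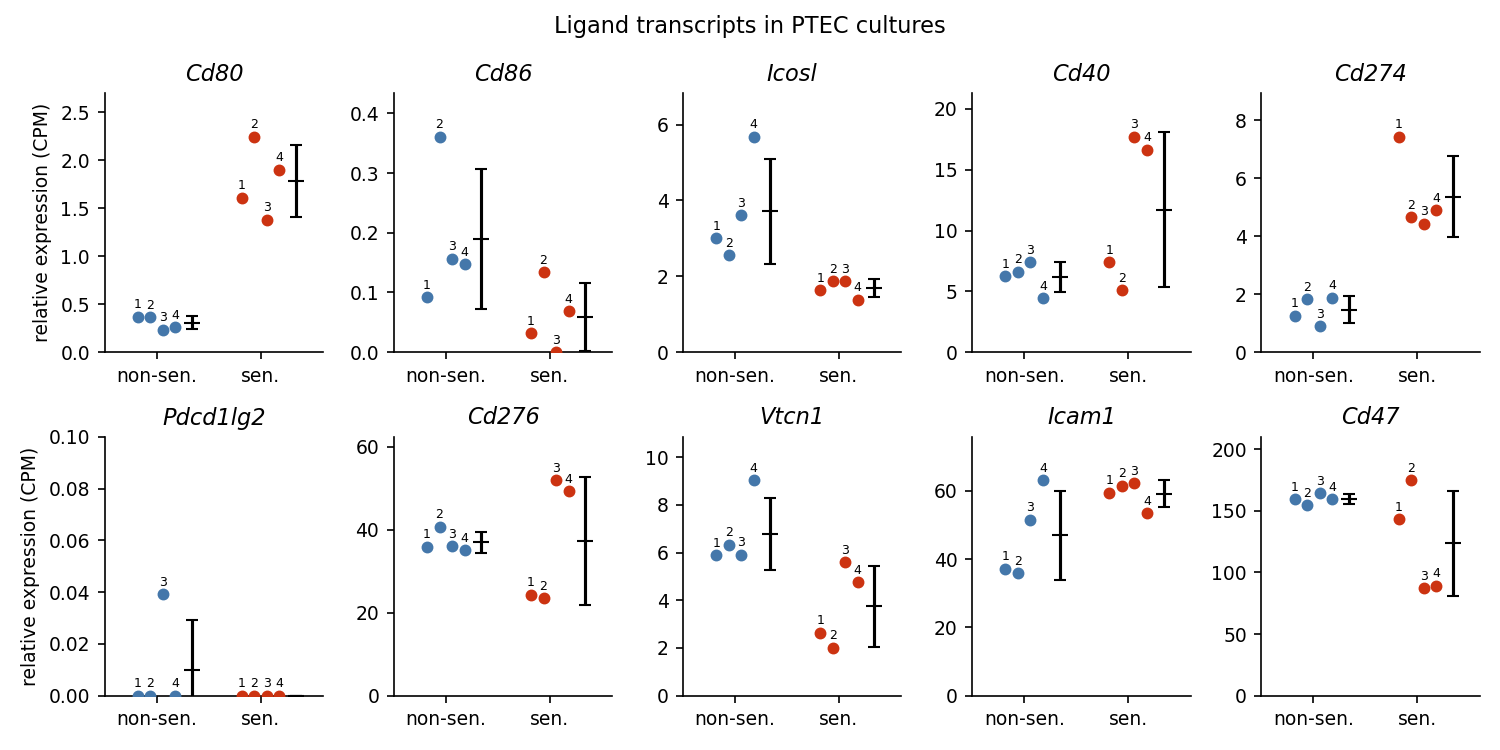
CPM of the 10 ligand genes in each PTEC sample, numbered by replicate, for non-senescent (day 6) and senescent (day 16, 10 Gray) PTEC, with the mean and 1 SD of each group (n = 4) and axes that start at 0. All senescent samples lie above the non-senescent ones for Cd80 and Cd274, as for 22.1% of all tested genes. They lie below them for Icosl and Vtcn1, as for 19.9% of all tested genes. Cd40 is high in senescent replicates 3 and 4, at 17.7 and 16.6 CPM.

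Among the inhibitory ligands, Cd274 (ENSMUSG00000016496, chr19:29367455-29388095, plus strand) rose in senescent PTEC. It was measured at 1.26, 1.84, 0.902 and 1.88 CPM in non-senescent and at 7.43, 4.66, 4.43 and 4.91 CPM in senescent samples. Senescent samples all lay above the non-senescent ones, as for 22.1% of all tested genes, and senescent replicate 1 was the highest. The increase was 3.63-fold (log2 fold change 1.86, SE 0.300, 95% interval 1.19 to 2.53, edgeR adjusted p = 0.000999). PD-L1 and CD80 transcripts thus rose together. Per exon length, the ratio of Cd274 to Cd80 was 3.49, 5.20, 3.92 and 7.45 in non-senescent and 4.72, 2.12, 3.29 and 2.64 in senescent PTEC. The ratio was above 1 in every PTEC sample, and the groups overlapped.

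Pdcd1lg2 (ENSMUSG00000016498, chr19:29410919-29471161, plus strand) was close to absent from PTEC libraries. A single count was found in non-senescent replicate 3 and none in the other 7 samples, so a level up to the floor of 3 counts is not excluded by this depth.

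Cd276 (ENSMUSG00000035914, chr9:58524298-58555437, minus strand) was one of the abundant members. Its levels were 35.9, 40.7, 36.1 and 35.0 CPM in non-senescent and 24.4, 23.4, 51.9 and 49.3 CPM in senescent PTEC. The senescent samples lay on both sides of the non-senescent range, with replicates 1 and 2 below and 3 and 4 above. The fitted log2 fold change was 0.01 (SE 0.266, 95% interval −0.58 to 0.61, edgeR adjusted p = 0.975). Without senescent replicates 3 and 4, a choice made after these values were seen, it turned to −0.62 (edgeR adjusted p = 0.0279).

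Vtcn1 (ENSMUSG00000051076, chr3:100825459-100896922, plus strand) was lower in senescent samples but did not pass the main test. It was measured at 5.90, 6.33, 5.92 and 9.04 CPM in non-senescent and 2.64, 2.01, 5.59 and 4.77 CPM in senescent PTEC. All senescent values were below all non-senescent ones, as was so for 19.9% of all tested genes. Vtcn1 stood at a log2 fold change of −0.85 (SE 0.333, 95% interval −1.60 to −0.11, edgeR adjusted p = 0.0617). With the replicate number as a block, Vtcn1 was down-regulated, at −0.94 (edgeR adjusted p = 0.0154).

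Icam1 (ENSMUSG00000037405, chr9:21015985-21028817, plus strand) was abundant in both groups. Its levels were 37.2, 35.8, 51.5 and 63.1 CPM in non-senescent and 59.4, 61.5, 62.3 and 53.5 CPM in senescent PTEC. The groups overlapped through non-senescent replicate 4. The log2 fold change of 0.34 (SE 0.187, 95% interval −0.08 to 0.75) did not pass the test (edgeR adjusted p = 0.175), and without that replicate it was 0.51 (edgeR adjusted p = 0.0280), which counts as a call.

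Cd47 (ENSMUSG00000055447, chr16:49800533-49915010, plus strand) was the most abundant member by level per exon length. It was measured at 159, 154, 164 and 159 CPM in non-senescent and 143, 175, 87.2 and 89.2 CPM in senescent PTEC. Senescent replicates 3 and 4 were low and replicate 2 was the highest of all. The log2 fold change of −0.37 (SE 0.220, 95% interval −0.86 to 0.12) did not pass the test (edgeR adjusted p = 0.204), and without senescent replicate 2 it was −0.58 (edgeR adjusted p = 0.0475).

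Senescent replicates 3 and 4 were therefore higher than 1 and 2 for Cd40, Cd276 and Vtcn1 and lower for Cd47. Over all tested genes, log2 CPM correlated at 0.992 between senescent replicates 1 and 2 and at 0.987 between 3 and 4, and at 0.971 to 0.986 across these pairs, as a description over genes. By the chi-square of the counts per gene, however, replicate 4 differed less from 1 (34.2) and 2 (52.6) than from 3 (55.6), so that the libraries as a whole do not fall clearly into these pairs. Epithelial markers summed to 1562 and 1360 CPM in senescent replicates 1 and 2 and to 3088 and 2249 CPM in 3 and 4. Macrophage markers summed to 106 and 247 CPM in 1 and 2 and to 62.0 and 64.4 CPM in 3 and 4. Their part in the values of the ligands was not tested.

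**Figure D3:**
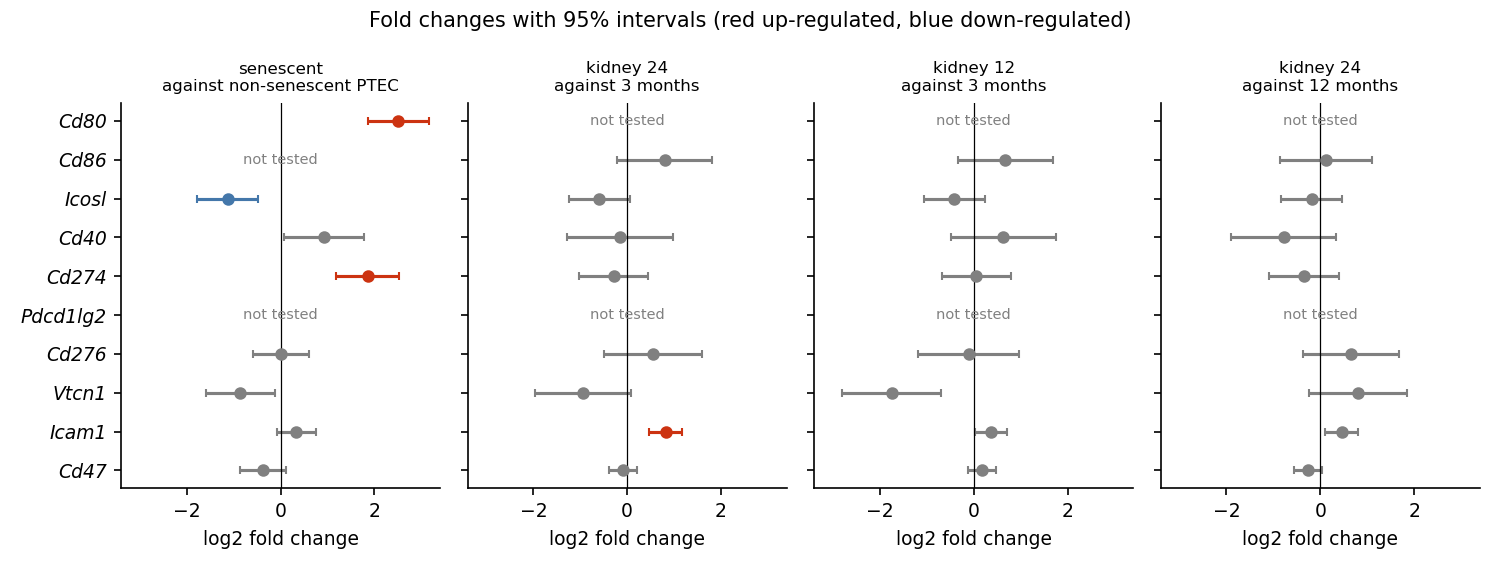
Log2 fold changes of the tested ligand genes with 95% intervals from edgeR, for senescent against non-senescent PTEC and for kidneys of 24 and 12 months against 3 months and 24 against 12 months. Cd80 and Cd274 are called up and Icosl down in PTEC, the intervals of Cd40 and Vtcn1 also leave out 0 without a call, and Icam1 stands at 0.82 in kidneys of 24 against 3 months.

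The cells that usually carry CD80 and PD-L1 were looked for by their markers. Dendritic cell markers summed to 3.26 to 6.70 CPM in non-senescent and 7.83 to 10.8 CPM in senescent PTEC. Of these 8 genes 1 was tested and was up-regulated, as 20.1% of all tested genes were (Zbtb46, 4.22 against 8.47 CPM, edgeR adjusted p = 0.00395, named after its values were seen). The other 7 dendritic cell markers summed to 0.235 to 1.41 CPM in non-senescent and 0.345 to 1.81 CPM in senescent PTEC, with ranges that overlap. Macrophage markers summed to 89.2 to 140 CPM in non-senescent and 62.0 to 247 CPM in senescent PTEC, with ranges that overlap. Of the 8 tested none was up-regulated and 1 was down-regulated, beside 20.1% and 19.7% of all tested genes. Endothelial markers summed to 71.4 to 261 CPM in non-senescent and 68.1 to 276 CPM in senescent PTEC, with ranges that overlap. All 8 were tested, none was up-regulated and 1 was down-regulated, beside the same shares of all tested genes. B and plasma cell markers summed to 0.0615 to 0.314 CPM in non-senescent and 0.725 to 1.04 CPM in senescent PTEC. Fibroblast and pericyte markers, given above, summed to 78.5 to 166 CPM in non-senescent and 567 to 1215 CPM in senescent PTEC, there mostly from Acta2. Of the 7 tested, 5 were up-regulated, beside the same 20.1%. The part of all these cells in the Cd80 and Cd274 values was not tested.

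In kidneys, 8 of the 10 members passed the filter, with Cd80 and Pdcd1lg2 too low to be tested. Icam1 was up-regulated at 24 against 3 months, and no member was called in the other comparisons of ages. Of 17067 genes tested, 1.89% were up-regulated and 0.451% down-regulated at 24 against 3 months, 1.22% and 1.36% at 12 against 3 months, and 0.896% and 0.434% at 24 against 12 months. The 3 comparisons share samples. The members' median log2 fold change was −0.12, 0.12 and −0.03 in the same order, close to the medians over all tested genes.

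Icam1 was measured at 18.3, 18.2 and 21.4 CPM at 3 months, at 25.4, 23.2 and 26.1 CPM at 12 months and at 38.2, 36.4 and 27.9 CPM at 24 months. Each age lay above the younger one without overlap, as 11.9% of all tested genes did at 24 against 3 months, 10.9% at 12 against 3 months and 13.5% at 24 against 12 months. The log2 fold change at 24 against 3 months was 0.82 (SE 0.155, 95% interval 0.48 to 1.17, edgeR adjusted p = 0.0291). At 12 against 3 months it was 0.37 (edgeR adjusted p = 0.272) and at 24 against 12 months 0.46 (edgeR adjusted p = 0.202). When each of the 6 kidneys of these ages was omitted in turn, the call at 24 against 3 months was lost 4 times, without 3-month replicate 1 or 3 or 24-month replicate 1 or 2, with an edgeR adjusted p of up to 0.167. It was also lost with the replicate number as a block (edgeR adjusted p = 0.118) and when only these ages were fitted (edgeR adjusted p = 0.0752). Endothelial markers summed to 186 to 265 CPM at 3 months, 271 to 312 CPM at 12 months and 193 to 340 CPM at 24 months. Leukocyte markers summed to 92.9 to 103 CPM, 113 to 121 CPM and 122 to 168 CPM in the same order. Fibroblast and pericyte markers summed to 157 to 169 CPM, 169 to 175 CPM and 217 to 270 CPM. The part of these cells in the Icam1 values was not tested.

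The costimulatory ligands showed no call with age. Cd80 had 2, 2 and 5 counts at 3 months, 3, 13 and 1 at 12 months and 7, 5 and 3 at 24 months. Cd86 was measured at 0.656, 0.901 and 1.69 CPM, then 1.09, 2.73 and 1.37 CPM, then 2.14, 2.22 and 1.32 CPM, with a log2 fold change of 0.80 at 24 against 3 months (edgeR adjusted p = 0.353). The ages overlapped for both CD28 ligands. By mean level per exon length Cd86 stood above Cd80 at every age, while Cd80 stood above Cd86 in both PTEC groups, within the spread in the non-senescent one.

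Icosl was measured at 10.5, 5.76 and 8.98 CPM at 3 months, 5.79, 8.34 and 4.80 CPM at 12 months and 5.38, 6.88 and 4.44 CPM at 24 months. The ages overlapped, with a log2 fold change of −0.59 at 24 against 3 months (edgeR adjusted p = 0.306). Cd40 averaged 1.32 ± 0.599 CPM (SD) at 3 months, 2.04 ± 1.39 CPM at 12 months and 1.19 ± 0.340 CPM at 24 months (log2 fold change −0.15 at 24 against 3 months, edgeR adjusted p = 0.871). Within the kidneys of 12 months, replicate 2 was the highest for Cd80, Cd86, Icosl, Cd40, Cd274 and Cd47. The 8 leukocyte markers summed to 115 CPM in replicate 1, 121 CPM in replicate 2 and 113 CPM in replicate 3. In replicate 2, 5 of these 8 were higher than in both others (Ptprc, Cd52, Coro1a, Cd53 and Arhgdib) and 3 were lower (Laptm5, Lcp1 and Cytip), of which Lcp1, the most abundant, was 30.1 CPM against 40.2 and 40.1 CPM. Replicate 2 also had lower sums of proximal tubule markers (14194 against 21073 and 22021 CPM) and of epithelial markers (904 against 1482 and 1616 CPM). Their part in the ligand values was not tested.

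**Figure D4:**
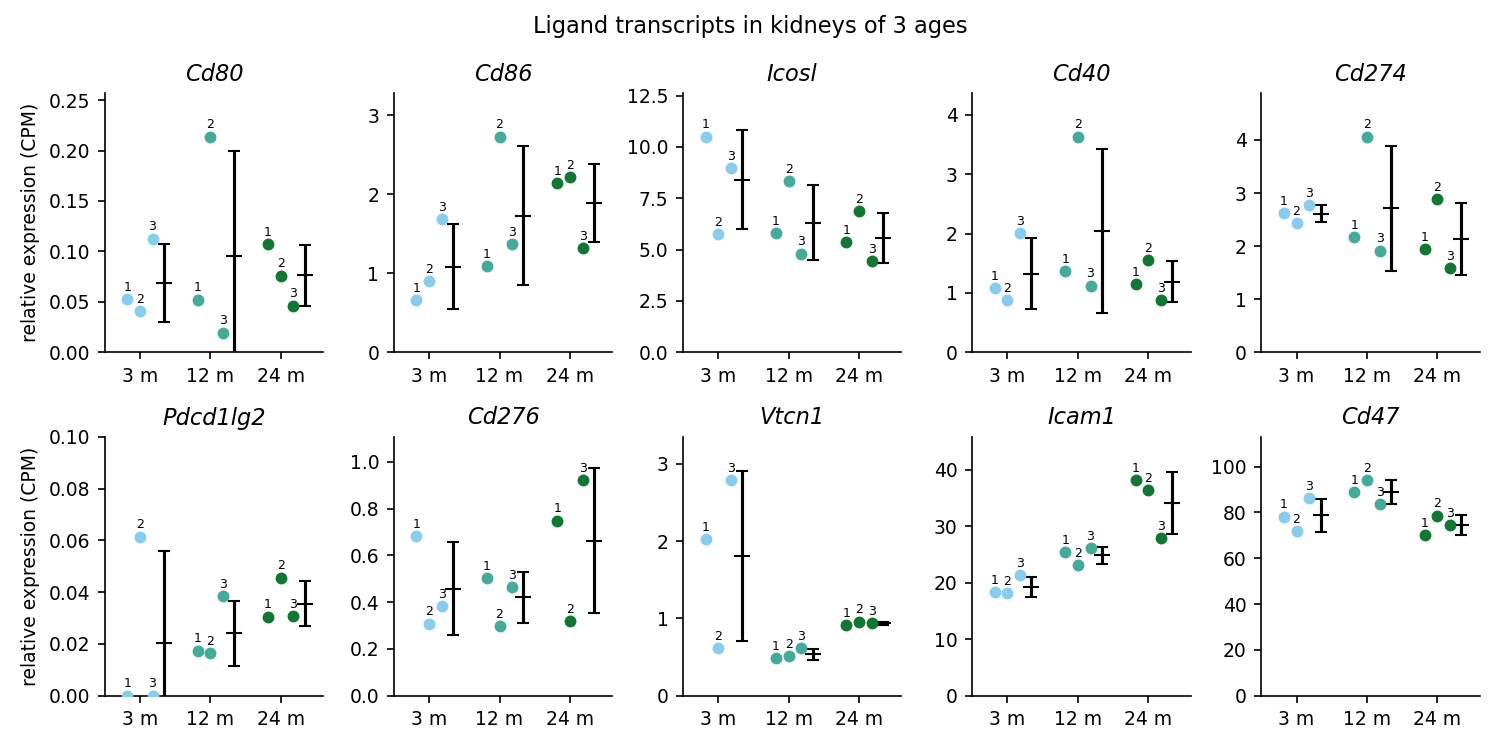
CPM of the 10 ligand genes in each kidney, numbered by replicate, at 3, 12 and 24 months, with the mean and 1 SD of each age (n = 3) and axes that start at 0. Icam1 rises from 18.2 to 21.4 CPM at 3 months to 27.9 to 38.2 CPM at 24 months, and replicate 2 is the highest kidney of 12 months for Cd80, Cd86, Icosl, Cd40, Cd274 and Cd47.

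In the main edgeR fit no inhibitory ligand was called with age. Cd274 was measured at 2.63, 2.44 and 2.77 CPM at 3 months, 2.17, 4.06 and 1.91 CPM at 12 months and 1.94, 2.89 and 1.58 CPM at 24 months (log2 fold change −0.29 at 24 against 3 months, edgeR adjusted p = 0.611). Pdcd1lg2 had 0 to 3 counts in every kidney. Cd276, abundant in PTEC, ran from 0.296 to 0.922 CPM over the 9 kidneys, and the levels of PTEC and kidneys were normalised separately and not tested against each other.

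Vtcn1 was measured at 2.02, 0.615 and 2.79 CPM at 3 months, 0.486, 0.510 and 0.617 CPM at 12 months and 0.916, 0.957 and 0.937 CPM at 24 months. Replicate 2 of 3 months, at 0.615 CPM, lay below the highest kidney of 12 months, and the other 3-month kidneys lay above all older ones. At 12 against 3 months 9.40% of all tested genes lay lower without overlap, and Vtcn1 was not among them. Its log2 fold change was −1.74 at 12 against 3 months (edgeR adjusted p = 0.0909) and −0.94 at 24 against 3 months (edgeR adjusted p = 0.300). Without that replicate Vtcn1 was down-regulated in both comparisons, at −2.16 (edgeR adjusted p = 0.00309) and −1.35 (edgeR adjusted p = 0.0252).

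Cd47 stayed between 69.9 and 94.1 CPM in all 9 kidneys. Its log2 fold change was −0.08 at 24 against 3 months (edgeR adjusted p = 0.709), 0.17 at 12 against 3 months (edgeR adjusted p = 0.602) and −0.26 at 24 against 12 months (edgeR adjusted p = 0.392). By mean level per exon length, Cd47, Icam1, Icosl and Cd274 led and Cd276, Cd80 and Pdcd1lg2 came last at every age. In kidneys of 3 months these levels were 12.6 CPM per kilobase for Cd47, 4.42 for Icam1, 1.82 for Icosl and 0.721 for Cd274, against 0.125 for Cd276, 0.0185 for Cd80 and 0.0104 for Pdcd1lg2. The intervals of mean ± SD overlapped for Cd274 and the next member at each age, Vtcn1 at 3, Cd40 at 12 and Cd86 at 24 months. They also overlapped for Cd276 with Cd86 at 3 months and with Cd40 at 24 months. The ratio of Cd274 to Cd80 per exon length was 18.5 to 101.2 in kidneys, on Cd80 counts of 1 to 13.

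The antigen side of the contact was read beside the ligands. Cd74, the invariant chain of MHC class II, rose in senescent PTEC (2.91 against 0.315 CPM, log2 fold change 3.22, edgeR adjusted p = 0.00147). H2-Eb1 rose by 2.85 (edgeR adjusted p = 0.000988) and H2-Ab1 by 1.63 (edgeR adjusted p = 0.0156) on the log2 scale. Of 9 genes of antigen presentation, 7 were tested in PTEC, 5 were up-regulated and none down-regulated, beside 20.1% and 19.7% of all tested genes, with a median of 1.53. In the same samples fibroblast and pericyte markers summed to 78.5 to 166 CPM in non-senescent and 567 to 1215 CPM in senescent PTEC, there mostly from Acta2. B and plasma cell markers summed to 0.0615 to 0.314 and 0.725 to 1.04 CPM, and macrophage markers overlapped, at 89.2 to 140 and 62.0 to 247 CPM. The part of these cells was not tested. In kidneys of 24 against 3 months 5 of 9 were up-regulated, against 1.89% of all tested genes, with a median of 0.89, Cd74 at 1.30 (edgeR adjusted p = 0.0400), H2-Aa at 1.10 (edgeR adjusted p = 0.0178) and H2-Eb1 at 1.06 (edgeR adjusted p = 0.0148). At 12 against 3 months 3 of 9 were up-regulated, against 1.22% of all tested genes, H2-Aa, H2-Eb1 and H2-Ab1. Markers of cells that present antigen were read by age too. B and plasma cell markers summed to 6.92 to 16.6 CPM at 3 months, 48.7 to 232 CPM at 12 months and 116 to 772 CPM at 24 months, with 4 of 8 up-regulated at 24 against 3 months, beside the same 1.89%. Macrophage markers summed to 113 to 181 CPM, 167 to 191 CPM and 191 to 249 CPM, with positive log2 fold changes in 10 of 10 and 1 up-regulated at 24 against 3 months. Dendritic cell markers summed to 8.54 to 11.7 CPM, 12.2 to 17.2 CPM and 11.5 to 16.1 CPM, with positive log2 fold changes in 6 of 8 and 1 up-regulated at 24 against 3 months. Their part in the antigen presentation values was not tested.

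Of 22 further ligands of T cells and phagocytes, 14 were tested in PTEC, of which 3 rose and 1 fell (median log2 fold change 0.27), beside 20.1% and 19.7% of all tested genes, so that the share that rose is near the background. Lgals9, which encodes galectin-9, a ligand of TIM-3, rose from 6.02 to 22.7 CPM (log2 fold change 1.91, edgeR adjusted p = 0.00109). Btn2a2, a butyrophilin that restrains T cells, rose by 2.33 on the log2 scale (edgeR adjusted p = 0.0200), and Cd200, a ligand that restrains myeloid cells, by 1.53 (edgeR adjusted p = 0.0151). Tnfsf9, the ligand of the costimulatory receptor 4-1BB, fell by 1.04 on the log2 scale (edgeR adjusted p = 0.0300). At 24 against 3 months 2 of 15 tested rose in kidneys, beside 1.89% of all tested genes, Vcam1, an adhesion ligand, from 7.11 to 21.2 CPM (log2 fold change 1.58, edgeR adjusted p = 0.0113) and Vsir, which encodes VISTA, by 0.90 (edgeR adjusted p = 0.0482).

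Of 22 receptors for these ligands, 10 were tested in PTEC, 2 were up-regulated and 5 down-regulated, beside 20.1% and 19.7% of all tested genes, with a median of −0.62. Tnfrsf9, which encodes 4-1BB, rose from 1.94 to 5.77 CPM (log2 fold change 1.57, edgeR adjusted p = 0.000471), and Cd200r1 by 1.39 (edgeR adjusted p = 0.0148). Besides Icos, the inhibitory receptor Tigit fell by 1.90 (edgeR adjusted p = 0.0151) and Itgal, a chain of the ICAM1 receptor LFA-1, by 1.82 (edgeR adjusted p = 0.00584). Of 7 leukocyte markers tested in PTEC, 4 were down-regulated and 1 up-regulated, beside the same shares of all genes, with a median of −0.68. The part of leukocytes in these receptor values was not tested. In kidneys of 24 against 3 months all 15 receptors tested had positive log2 fold changes, with a median of 1.29, and Itgal was the 1 that was up-regulated, beside 1.89% of all tested genes (log2 fold change 1.29, edgeR adjusted p = 0.0242). Sirpa, the receptor of CD47, rose at 24 against 12 months (log2 fold change 1.01, edgeR adjusted p = 0.0330). T cell markers in kidneys summed to 3.33 to 4.07 CPM at 3 months, 5.33 to 10.5 CPM at 12 months and 6.88 to 10.2 CPM at 24 months, and their part in the receptor values was not tested.

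Of 15 genes of interferon signalling, which is known to raise Cd274 and MHC class II transcription, 3 were up-regulated and 1 down-regulated in senescent PTEC, with a median of 0.03, beside 20.1% and 19.7% of all tested genes. The share that rose is that of the background. Irf9 rose by 1.30 (edgeR adjusted p = 0.000341) and Stat2 by 1.25 (edgeR adjusted p = 0.00275) on the log2 scale. Socs3, a feedback inhibitor of cytokine receptors, fell by 1.12 (edgeR adjusted p = 0.000890), and Irf1 stood at −0.47 (edgeR adjusted p = 0.0164), under the fold threshold. In kidneys none of the 15 was called at 24 against 3 months.

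Of 13 genes of NF-kB signalling, which acts upstream of Icam1, Cd80 and Cd40 in other cells, 1 was up-regulated and 4 down-regulated in senescent PTEC, beside the same background of 20.1% and 19.7%, with a median of −0.31. Traf3, an adaptor of the CD40 receptor, rose by 0.53 (edgeR adjusted p = 0.0434). Traf1 fell by 2.16 (edgeR adjusted p = 0.000501), Birc3 by 0.68 (edgeR adjusted p = 0.00310) and Nfkb2 by 0.64 (edgeR adjusted p = 0.0235). None of the 13 was called in kidneys of 24 against 3 months.

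Of 4 genes that act on the ligands after transcription or bind them, 2 were up-regulated and none down-regulated in senescent PTEC, beside the background of 20.1% and 19.7%. Thbs1, a secreted CD47 ligand, rose from 1493 to 5021 CPM (log2 fold change 1.75, edgeR adjusted p = 0.00393). Qpctl, the enzyme that modifies CD47 for SIRP-alpha binding, rose by 0.58 (edgeR adjusted p = 0.00467), while Cmtm6, which keeps PD-L1 at the cell surface, stood at 0.13 (edgeR adjusted p = 0.375). In kidneys Thbs1 fell by 1.11 at 12 against 3 months (edgeR adjusted p = 0.0455), and none of the 4 was called at 24 against 3 months. These are transcript levels, and surface protein was not measured in these files.

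**Figure D5:**
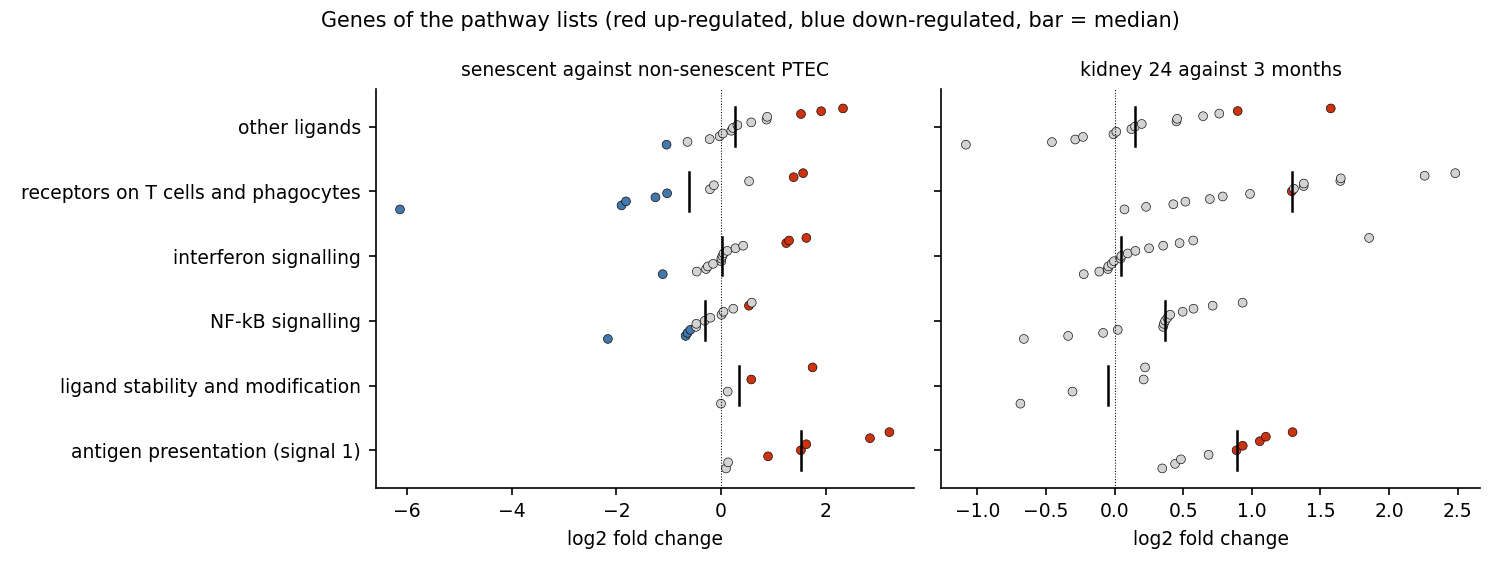
Log2 fold changes of each tested gene in the ligand, receptor, interferon, NF-kB, stability and antigen presentation lists, for senescent against non-senescent PTEC and for kidneys of 24 against 3 months, with the median of each list and called genes marked. Antigen presentation genes have the highest median in PTEC, 1.53, and receptors the lowest, −0.62, while in kidneys the receptors stand at 1.29.

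Annotated genes on the opposite strand overlap 4 members. The partner shares 511 exon bases with Cd274, 416 with Cd276, 511 with Icam1 and 0 with Pdcd1lg2. The libraries mark strand, but whether counting used it is not given in the sources used here. Counts of the partners were at most 12 for Cd276 and 4 for Icam1. The partner of Pdcd1lg2 had 7 to 19 counts in PTEC and 14 to 36 in kidneys, above the 0 to 3 counts of Pdcd1lg2 itself. The partner of Cd274 had 0 to 3 counts in kidneys of 12 and 24 months, and its counts in PTEC were not analysed here.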

How the data were processed

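RNA was sequenced by the study's authors from PTEC and kidneys with a directional library kit, and the deposited values are raw counts per gene, a file for each sample, on GRCm38 as the submitters' processing notes give it. The study's methods name nf-core/rnaseq and a GENCODE annotation, and the aligner, counter and strand setting are not given in the sources used here. The members and lists were chosen with earlier results of these data known. All members are named, and at most the 3 called genes of each list with the largest rise and the 3 with the largest fall in a comparison, except 1 gene that is not reported here, and beside them Irf1 and Cmtm6 as known regulators of Cd274 and Cdkn1a and Cdkn2a as a check of the labels. Counts were tested with edgeR 4.0.16 in R 4.3.3 (TMM scaling, filterByExpr, robust quasi-likelihood test, Benjamini-Hochberg adjustment over all tested genes), with the 8 PTEC in a first fit and all 9 kidneys in a second. Calls were made at an adjusted p of less than 0.05 with a log2 fold change beyond 0.5 in either direction. CPM are counts over TMM-scaled library totals, and level per length divides CPM by the union exon length of GENCODE M21. Kidney files were joined over 53772 shared identifiers. Alternatives were DESeq2 1.42.0, other scalings, filters and thresholds, a replicate block, and each replicate left out. No pair of replicates agreed within sampling noise (chi-square per gene 15.8 to 312.2 over 21 pairs). Same-numbered PTEC deviated together (r = 0.28, 0.38, 0.61 and 0.19), so the block is given beside the result it changes. On simulated PTEC counts, 56 of 100 genes changed at a log2 fold of 1 and 94 of 100 at 2 were recovered, with 6 false calls among 156. For kidneys of 24 against 3 months these were 21 and 86 of 100, with 14 false calls among 121. The changed genes, 200 of 15434 in PTEC and 200 of 17067 in kidneys, were drawn from those with a mean above 1 CPM. The recovery thus does not cover genes below that level, or the larger share of genes called in the real PTEC data.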

Additional observations from a re-analysis of the deposited data

Results flagged for a closer look

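Over 75 pairs of a gene and a PTEC group, a sample that stood apart from the other 3 by Dixon's 95% criterion was found in 5, and chance gives about 1 in 20. Of 19 such pairs in the ligand genes 3 were among them. Cd274 was 7.43 CPM in senescent replicate 1, against 4.43 to 4.91 CPM in the other senescent samples. Vtcn1 was 9.04 CPM in non-senescent replicate 4, against 5.90 to 6.33 CPM in the others. Pdcd1lg2 was 0.0392 CPM in non-senescent replicate 3, which is 1 count, against 0 in the others, and a lone count among zeros meets the criterion by construction. Birc3 was 40.2 CPM in non-senescent replicate 1, against 37.5 to 37.8 CPM, and H2-Eb1 was 0.745 CPM in non-senescent replicate 3, against 0.221 to 0.307 CPM.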

How the results depend on the processing

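Cd80, Cd274 and Icosl kept direction and call in all 8 PTEC fits that left out 1 sample, at log2 fold changes of 2.38 to 2.63, 1.66 to 1.99 and −1.28 to −0.86. Over those fits 2 to 3 members were up-regulated and 1 to 2 down-regulated. The number down-regulated was also 2 with DESeq2 (Vtcn1 −0.87, adjusted p = 0.0404), with the replicate block (Vtcn1 −0.94), without senescent replicate 2 (Cd47 −0.58) or 3 (Vtcn1 −1.10) and without senescent cultures 3 and 4. The last setting, and its counterpart without cultures 1 and 2, were chosen after the data were seen. Without cultures 3 and 4, Cd276 reversed to −0.62 (edgeR adjusted p = 0.0279), Vtcn1 was −1.53 (edgeR adjusted p = 0.00900) and Icosl lost its call (−1.07, edgeR adjusted p = 0.0730). Without cultures 1 and 2, Cd40 was 1.48 (edgeR adjusted p = 0.00542), Cd47 −0.85 (edgeR adjusted p = 0.00924) and Icosl lost its call (−1.18, edgeR adjusted p = 0.0740). The cause was not tested.

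In kidneys of 24 against 3 months, 0 members were up-regulated above a log2 fold change of 1, with the replicate block (Icam1 0.82, edgeR adjusted p = 0.118) and with only the ages compared (edgeR adjusted p = 0.0752). Leaving out 1 kidney gave 0 to 1 up-regulated and 0 to 1 down-regulated, and 0 to 1 down-regulated at 12 against 3 months, where DESeq2 also gave 1 (Vtcn1 −1.75, adjusted p = 0.0112). Same-numbered kidneys did not deviate together at 24 against 3 months (r = −0.03, −0.42 and −0.22) or 12 against 3 months (r = −0.05, −0.70 and −0.61) but did at 24 against 12 months (r = 0.38, 0.56 and 0.17), where the block changed no call. Other scalings moved the median of all genes by at most 0.06. Of 667 alternative values, 630 kept the call or a like count. A gene called in neither fit was among them even where its direction changed. The cause was not tested. Depth limits Cd86 in PTEC, Cd80 in kidneys and Pdcd1lg2 in both.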
